A study of Danio rerio with 2 samples.

Results

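Nuclear receptors for hormones and lipids were read from the arrays as all probes whose gene symbol in the files begins with the letters of a nuclear receptor family (nr with its family number, rar, rxr, ppar, esr, thr, vdr, ror, ar or pgr). The nr1d1 and ppargc1al probes, 5 in all, were left out as the rule asks. That gave 134 probes for 67 genes, of 43553 probes for 27180 genes and unnamed targets on the array. The letters also caught 5 genes, with 10 probes, that are no nuclear receptors, and these are described apart. The results below are on the 62 receptor genes, read by 124 probes, of which 27 genes had 1 probe and 35 had more, up to 5.

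The study compared WT embryos of the AB strain with F2 embryos of Tg(RE:HSE:EGFP), also in AB, a line in which a bidirectional heat shock promoter drives EGFP and the fusion RUNX1-Evi-1, made from human genes. Embryos of both groups were given a heat shock of 1 hour at 38 °C, at 16 hpf by the series text and within 14 to 18 hpf by the sample labels, and collected at 72 hpf. The line goes back to injected founders crossed with WT fish, and the study mated transgenic F1 fish with each other. It reports EGFP in most but not all F2 offspring after heat shock. Neither the labels nor the methods give a selection of F2 embryos by EGFP for the arrays. The heat shock, which the WT embryos also received, drives the transgene in whichever embryos carry it. Total RNA was hybridized to 1-colour Agilent zebrafish arrays, with 1 array per group analysed here although the methods speak of triplicates. The labels and methods describe no sorting of cells, although the study's results speak of blood cells, and all 10 skeletal muscle, 8 lens, 10 epidermis and 8 erythrocyte marker genes on the array were above background on both arrays. Each group has 1 value per probe, and whether that value is a single array's or a mean over several is not stated in the labels or methods. There is thus no replicate error, no test between the groups could be run, and the groups cannot be told apart from any batch they were run in.

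Nuclear receptors are transcription factors that bind DNA through a zinc finger domain, and many of them switch between corepressor and coactivator complexes when a small lipophilic ligand enters their other domain. Receptors for retinoic acid, thyroid hormone, vitamin D, fatty acids, oxysterols and bile acids pair with a retinoid X receptor on DNA, steroid receptors mostly act as pairs of their own kind after leaving cytosolic chaperones, and the orphan receptors have no established hormone. In the embryo they pattern the hindbrain and limbs, set the identity of veins and atria, direct the making of steroid-producing cells and tie metabolism to nutrient supply. Many receptor genes of the zebrafish exist as a and b copies, left from the genome duplication of teleost fish.

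Levels are the deposited log2 signals, and differences are the Tg-labelled array minus the WT-labelled array on the log2 scale after subtraction of each array's 75th percentile, a step that moved every difference by -0.001. The sign of the differences opposes the study's direction for some genes and not for others. The gene hdac4 was lower on the Tg-labelled array by both probes (-0.34 and -1.19), as were h1-10, named h1fx in the files (-1.12 and -1.34), and a probe described as histone deacetylase 11 (-1.25). The study gives each of these genes as higher in the transgenic larvae, and for h1fx it prints the levels of the latter of its probes with the groups exchanged. The levels it prints for hdac4 and histone deacetylase 11 match those of the probes read here in neither order. Of blood cell genes that the study followed by PCR, gata1a was at -0.95, spi1b (pu.1) at 0.46 and mpx (mpo) at 0.75. The signs of gata1a and spi1b are those the study gives at the same stage, and that of mpx is the opposite. The 6 genes mcm2 to mcm7 lay between -1.29 and -0.89. For DNA replication genes the study gives a lower expression in the transgenic larvae, the same sign. It also gives the cell cycle pathway as upregulated. Of 12 proliferation markers on the array, the mcm genes among them, 11 were lower on the Tg-labelled array and 1 was higher, mostly the opposite sign. The mcm genes thus count in both comparisons. Outside them, by the brightest probe, cdc20 (-2.16), top2a (-1.12), ccnb1 (-0.495), ccna2 (-0.16) and cdk1 (-0.15) were lower and pcna (0.38) was higher. Several of these values depend on the probe. The highest other probe lay at 0.45 for cdc20, 0.135 for ccnb1, 0.13 for ccna2 and -0.34 for top2a. The direction is therefore not settled by these genes and follows the labels of the arrays, which are named by them throughout. No probe is named for EGFP or the fusion gene, and zebrafish runx1 was not above background by any of its 3 probes.

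Smell and taste receptor genes, used by few cells of an embryo, set the background limit: 182 of their probes had their 95th percentile at 6.69 on both arrays, and a probe above it was taken as readable. By this limit 37 of the 62 receptor genes could be read, 32 of them on both arrays and the rest on a single array. Both pparda and nr2c2 passed it on the WT-labelled array only, and esrrga, nr4a2a and nr4a2b on the Tg-labelled array only. For a gene above background on 1 array the size of the difference has only a bound, given as at least so many fold against the other array's background limit. The probe with the highest mean level stood for its gene.

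**Figure D1:**
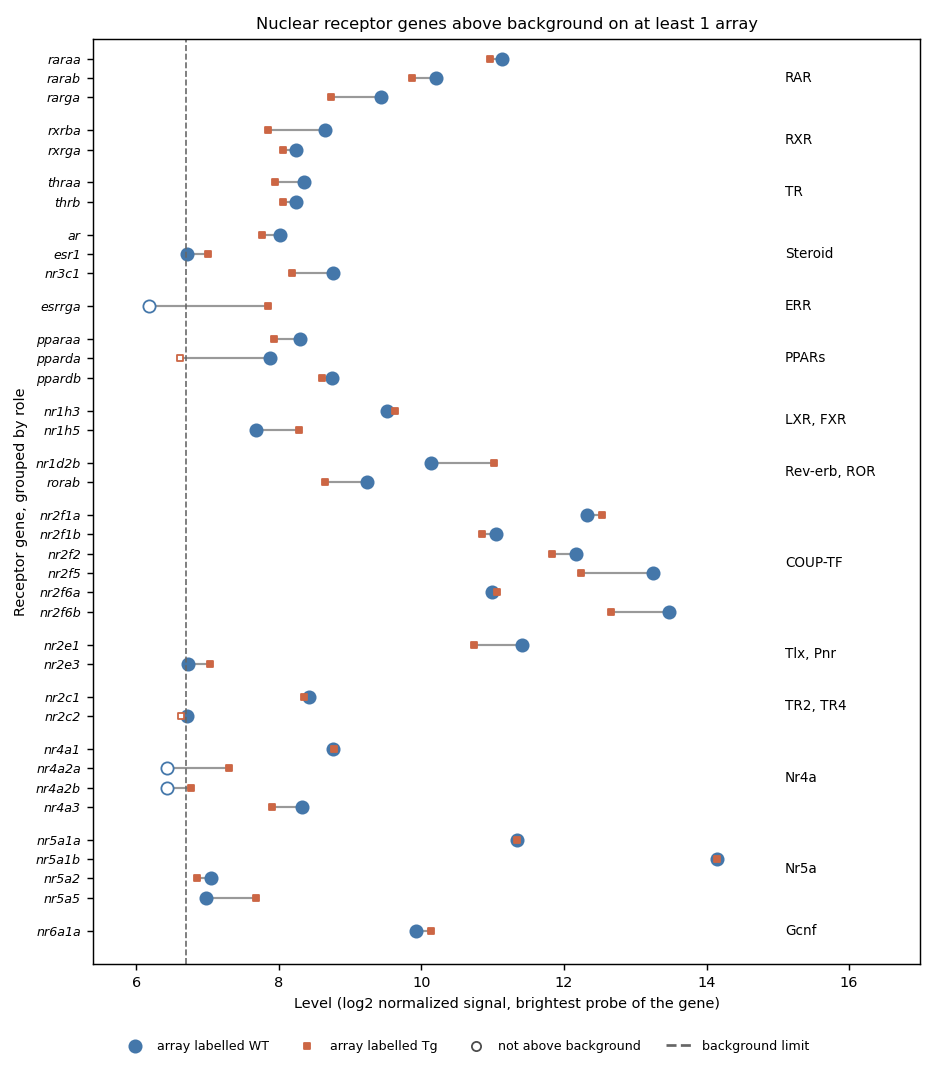
Level on each array (log2 normalized signal of the brightest probe) of the 37 receptor genes above background on at least 1 array, grouped by role, with circles for the WT-labelled array, squares for the Tg-labelled array, open symbols for levels not above background and the background limit of 6.69 as a dashed line. The widest gaps are those of esrrga, pparda and nr2f5, and the symbols of nr4a1, nr5a1a and nr5a1b lie on top of each other.

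Most receptor genes lay close to the same level on both arrays, and the larger differences ran in both directions. At least 2-fold, esrrga was higher and pparda and nr2f5 were lower on the Tg-labelled array, 3 of 37 genes or 8.11%, where 8.18% of all 16292 genes above background passed 2-fold in either direction (4.69% higher and 3.49% lower). At 1.5-fold, 5 receptor genes were higher, 13.5% against 12.3% of all genes, and 8 were lower, 21.6% against 12.5% of all genes. Some of these genes were counted by a narrow margin. Among the lower, nr3c1 (1.503-fold) and rorab (1.504-fold) barely passed, and rxrba had other probes at 0.04 and 0.03. Among the higher, nr1h5 (1.518-fold) and nr4a2a (at least 1.524-fold) were also close to the threshold. Among receptor genes above background on both arrays, 21 of 32 (65.6%) were lower on the Tg-labelled array, where 52.7% of all 14572 such genes were. Their median difference was -0.19, beside -0.03 over all such genes, and the middle of their range ran from -0.42 to 0.07 (lower and upper quartile), beside -0.35 to 0.30 over all. The counts past 2-fold are near the share of all genes, and whether the lower median would hold in other embryos was not tested. The shares of all genes, 4.69% higher and 3.49% lower, also stand beside the 2-fold counts of each gene list below.

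**Figure D2:**
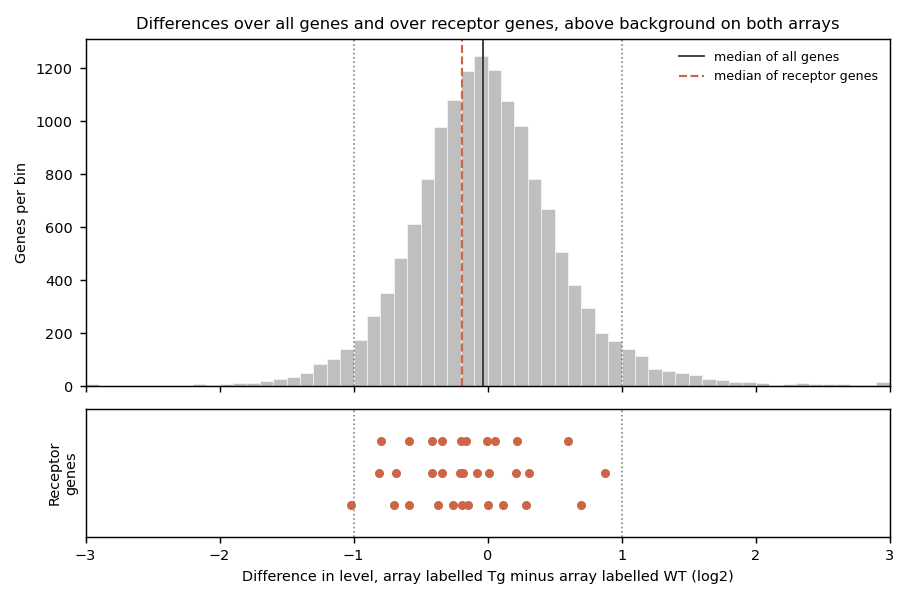
Differences in level (Tg-labelled array minus WT-labelled array, log2) of 14572 genes above background on both arrays as a histogram, whose outermost bins also hold the genes beyond the axis, and of the 32 receptor genes among them as points below, set at 3 heights for legibility only. Dotted lines mark 2-fold, and the medians are -0.03 over all genes and -0.19 over receptor genes.

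By its brightest probe, each readable receptor for retinoids was lower on the Tg-labelled array. Retinoic acid receptors switch on hindbrain and limb patterning genes when bound by retinoic acid. Of 4, raraa (-0.16), rarab (-0.34) and rarga (-0.70) were above background on both arrays and rargb on neither. For rarga the levels were 9.43 (WT label) and 8.74 (Tg label), a 1.62-fold difference that rests on its single probe (Zv8 assembly, chromosome 23, 35270013 to 35270166). Retinoid X receptors, the shared partners of many other receptors, could be read for 2 of 5 genes, rxrba (-0.79) and rxrga (-0.19), while rxraa, rxrab and rxrbb were not above background on either array. The brightest rxrba probe went from 8.65 on the WT-labelled array to 7.86 on the Tg-labelled array (chromosome 19, 6864466 to 6864525). A pair of dimmer rxrba probes, both placed at 6887652 to 6888263, gave 7.01 and 7.05, and 6.80 and 6.83, in the same order of arrays. The rxrba difference therefore depends on the probe, and the probe nearest the gene's median gave 0.03.

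Genes that make, carry, remove or answer to retinoic acid were read from 23 of the 24 listed. Past 2-fold, 1 was higher and 2 were lower on the Tg-labelled array, where 4.69% and 3.49% of all genes were. The median was 0.04. The higher gene was rbp2a, a cellular retinol-binding protein (8.34 and 10.12 on the arrays with the labels WT and Tg, 3.44-fold), whose other probe differed by 0.19. The lower genes were hoxb1a, the hindbrain Hox gene with a retinoic acid response (8.80 and 7.57, 2.36-fold, -0.50 by its other probe), and aldh1a3, an enzyme that makes retinoic acid (8.75 and 7.74, 2.01-fold, -0.70 by its other readable probe). Of the enzymes that break retinoic acid down, cyp26a1 was at -0.76, cyp26c1 at -0.75 (-1.38 at its other probe) and cyp26b1 at -0.16. The main synthetic enzyme of the trunk mesoderm, aldh1a2, was at -0.41, with 0.05 at its other probe. On the other side of 0 lay 12 of the 23 genes, among them the binding proteins crabp1b (0.91) and crabp1a (0.69) and the carotene-cleaving enzyme bco1 (0.90).

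Thyroid hormone receptors act as repressors without hormone and as activators with it. Both listed genes were lower on the Tg-labelled array, thraa at -0.42 (8.36 and 7.94) and thrb at -0.19 (8.25 and 8.06, with -0.15 and 0.02 at dimmer probes), neither by 1.5-fold. Their hormone's supply was read from 5 genes of 10 on the array, none past 2-fold. The 4 above background on both arrays were all higher on the Tg-labelled array (median 0.32), where 52.7% of all such genes were lower. They were crym, a cytosolic binder of thyroid hormone (0.60), the transporters slco1c1 and slc16a10 (0.32 each) and the thyrotropin receptor gene tshr (0.22). Except for crym, these differences were near the pooled SD between probes of a gene, 0.29 over all genes. The deiodinase dio2, the transport protein gene ttr and thyroglobulin (tg) were not above background on either array. Vitamin D receptors, vdra and vdrb, were not above background either. Of vitamin D genes, calb2a, a calcium buffer better known from neurons, was 2.30-fold higher on the Tg-labelled array (8.97 and 10.17), while cyp24a1, which inactivates vitamin D, was at -0.81 and the calcium channel gene trpv6 at -0.35.

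Among steroid receptors the glucocorticoid receptor nr3c1 was lower on the Tg-labelled array by each of its readable probes. Glucocorticoid receptors answer to cortisol, which also binds the mineralocorticoid receptor. The brightest probe with the symbol nr3c1 gave 8.77 on the WT-labelled array and 8.18 on the Tg-labelled array (-0.59, 1.503-fold). On chromosome 14, 2 more gave -0.61 and -0.54. Brighter probes placed in nr3c1 by the reference but under another name in the files, given at the end, were lower by 1.39-fold and 1.19-fold only. A pair of dim nr3c1 probes, not above background, lay at -0.16 and 0.11. The androgen receptor gene ar was at -0.26 (8.02 and 7.76) and the estrogen receptor gene esr1 at 0.28 (6.72 and 7.002, only 0.02 above the limit on the WT-labelled array). The mineralocorticoid receptor nr3c2, the progesterone receptor pgr and the estrogen receptors esr2a and esr2b were not above background on either array.

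Chaperones and targets of the corticoid receptors showed differences in both directions, with 16 of 19 genes above background and a median of 0.12. At least 2-fold, 2 were higher and 1 was lower on the Tg-labelled array, beside 4.69% and 3.49% of all genes. The lower gene was hsp90aa1.1, a cytosolic chaperone that holds steroid receptors ready for ligand and is also induced by heat and used by muscle (13.66 and 12.28, 2.59-fold). Higher were hsd11b2, which inactivates cortisol (8.82 and 10.59, 3.41-fold), and pck1, the glucocorticoid-responsive enzyme of gluconeogenesis (9.44 and 10.94, 2.83-fold), each by both probes. The tyrosine aminotransferase gene tat (0.90), also a glucocorticoid target, stayed short of 2-fold, and fkbp5, a much used marker of glucocorticoid action, was not above background. Of sex steroid targets 6 of 13 were above background and cyp19a1b alone passed 2-fold. This brain aromatase gene makes estrogen in radial glia and answers to it in zebrafish. The only readable probe of its 6 read 5.50 on the WT-labelled array, not above background, and 8.02 on the Tg-labelled array, at least 2.50-fold higher, and the others were not above background on either array. Of the yolk protein genes, the classic estrogen-induced family, vtg6 (6.34 and 7.51, at least 1.76-fold higher) and vtg1 (6.25 and 7.42, at least 1.65-fold) were readable on the Tg-labelled array only, vtg7 was at 0.58 and vtg2 at -0.08.

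Estrogen-related receptors are orphan relatives of the estrogen receptors that turn on mitochondrial genes. Their gene esrrga, named esrrg in the files, gave 6.17 on the WT-labelled array, under the limit, and 7.85 on the Tg-labelled array, at least 2.22-fold higher. The probe lies on chromosome 17 (27508684 to 27508743). The other esrrga probe, not above background on either array, read 5.98 and 5.61. The higher reading thus rests on 1 probe of 2. The genes esrra, esrrd and esrrgb were not above background on either array. Skeletal muscle, a tissue that uses estrogen-related receptors in mammals, had 10 of 10 marker genes above background and higher on the Tg-labelled array. Of these, 4 were at least 2-fold higher, where 4.69% of all genes were. The summed level of the 10 muscle markers was 19.1 and 20.1 on the arrays with the labels WT and Tg (log2). Their part in the esrrga difference was not tested.

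Peroxisome proliferator-activated receptors (PPARs) sense fatty acids and drive their uptake, binding and oxidation. All 3 readable PPAR genes were lower on the Tg-labelled array. The pparda probe (chromosome 22, 879134 to 879193) read 7.87 on the WT-labelled array and 6.62 on the Tg-labelled array, where it lay just under the limit, so that it was at least 2.27-fold lower there. Its copy ppardb differed by -0.14 (8.75 and 8.60) and by -0.31 at its other probe, and pparaa by -0.37 (8.30 and 7.94). The genes pparab and pparg were not above background on either array by the probes that carry their symbols. The pparda difference comes from a single probe.

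Of 31 genes on the array that were listed as PPAR targets, with earlier results of these data known, 27 were above background. Of these, 6 were at least 2-fold higher and 1 was lower on the Tg-labelled array, where 4.69% and 3.49% of all genes were. The median of the targets was 0.22 beside -0.03 over all genes. The highest were fatty acid-binding proteins, fabp4b (8.85 and 11.81, 7.79-fold), fabp7b (11.08 and 12.58, 2.83-fold) and fabp7a (15.13 and 16.57, 2.70-fold), the last of which is also a marker of radial glia. Also at least 2-fold higher were cpt1b (1.25), hadhaa (1.16, with 0.20 at its lowest probe) and ucp2 (1.12). The scavenger receptor gene cd36, which brings fatty acids into cells, was 2.39-fold lower (10.86 and 9.60). The values of fabp4b, fabp7b, cpt1b and cd36 each rest on 1 readable probe. The carriers fabp1b.1 (0.36) and fabp2 (-0.68), both of the intestine, lay on either side of 0. Liver markers, of which all 10 on the array were above background, had a median of 0.63 over the 7 readable on both arrays. Of these 7, 5 lay above 0, led by the fibrinogen gene fgg (1.58), and 2 below, tfa (-0.58) and serpina1 (-0.05). At least 2-fold, 2 liver markers were higher on the Tg-labelled array and none was lower. Their summed level was 18.6 and 18.7. Intestine markers had a median of -0.12 over 5 of 7 genes, with 1 at least 2-fold lower, and a summed level of 18.7 and 18.8. The liver-defining fabp10a was above background on the Tg-labelled array only (6.13 and 7.45). Skeletal muscle markers had a median of 0.88 and neuron markers one of 0.32. The part of liver, intestine, muscle or nervous tissue in these targets was not tested. In RNA of whole embryos fewer cells of a type and less RNA per cell cannot be told apart.

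Of the receptors of sterols and bile acids only nr1h5 differed by 1.5-fold, being higher on the Tg-labelled array. The farnesoid X receptor relative nr1h5 gave 7.68 and 8.28 on the arrays with the labels WT and Tg (0.60, 1.52-fold), and its other probe, 2673 bases away on the same scaffold, gave 7.51 and 8.15 (0.64). The liver X receptor nr1h3, which answers to oxysterols and sends cholesterol out of cells, was at 0.11 (9.51 and 9.63), with -0.17 and 0.24 at 2 other probes above background on both arrays. The bile acid receptor nr1h4 was not above background on either array. Of their targets and the xenobiotic genes 11 of 23 were above background and 1 passed 2-fold, the cholesterol exporter abca1a (9.66 and 10.73, 2.09-fold), which is a liver X receptor target. By its other readable probes abca1a differed as little as 0.11. Its copy abca1b was at -0.12, and of other sterol genes in the list mylipa was at -0.12, srebf1 at 0.03 and mylipb at 0.39. The median of the list was 0.10, with 7 genes above 0 and 4 below. The bile acid transporters slc10a1 (0.57) and slc51a (0.48) were also higher on the Tg-labelled array, abcb5 was lower (-0.58), and cyp7a1, the rate-limiting enzyme of bile acid synthesis, was at 0.14.

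Rev-erb and ROR receptors bind the same DNA element and repress and activate, respectively, the clock gene bmal1. They were read for 2 of 8 genes, which lay on opposite sides. The Rev-erb gene nr1d2b was higher on the Tg-labelled array, at 10.14 and 11.02 (0.88, 1.84-fold), and its dim probes, not above background, lay at 0.43 and 0.39. The ROR gene rorab was lower, at 9.24 and 8.65 (-0.59). Another rorab probe, placed next to it on chromosome 7, read 9.37 and 8.39 (-0.98, 1.97-fold). The genes nr1d2a, nr1d4a, nr1d4b, roraa, rorb and rorca were not above background on either array. Among clock genes 10 of 13 were above background and bmal2 alone passed 2-fold, being lower on the Tg-labelled array (8.52 and 7.42, 2.15-fold, -0.51 at its other probe). The cryptochromes cry1a (0.82) and cry2 (-0.73) lay on opposite sides, bmal1b was at -0.46 and bmal1a at 0.09. Higher were nfil3 (0.42), nfil3-5 (0.33) and nfil3-6, which was readable on the Tg-labelled array only, at least 1.46-fold. Over the 8 clock genes above background on both arrays the median was 0.20, with 5 above 0 and 3 below. The hour of collection on each day is not stated in the labels or methods, and its part in these differences was not tested.

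The COUP-TF group, orphan receptors that mostly repress transcription, was above background on both arrays for all 6 genes. The gene nr2f5 read 13.25 on the WT-labelled array and 12.23 on the Tg-labelled array (-1.02, 2.02-fold), at a probe on an unplaced scaffold of the Zv8 assembly (positions 71637 to 71696), and its other, dim probe lay at -0.33. Next came nr2f6b, at 13.47 and 12.66 (-0.81, 1.75-fold), whose other probe, above background on the WT-labelled array only, lay at -0.41. The gene nr2f2, which sets venous and lymphatic identity, was at -0.34, and its 5 probes lay between -0.43 and -0.21, all lower on the Tg-labelled array. Of the copies of nr2f1, used in brain, eye and heart, nr2f1a was at 0.22 (-0.17 at its other probe) and nr2f1b at -0.21 (-0.40 at its other). The gene nr2f6a differed by 0.06.

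The receptors nr2e1 and nr2e3 mark neural progenitors and photoreceptors. The first, known as tailless or Tlx and needed in mice to keep neural stem cells dividing, gave 11.41 and 10.74 on the arrays with the labels WT and Tg (-0.68, 1.60-fold), and its other probe, 861 bases away, gave 10.45 and 9.64 (-0.81, 1.75-fold). Of 12 proliferation markers on the array, all above background, 11 were lower on the Tg-labelled array by their brightest probes, where 52.7% of all genes were. For cdc20, ccnb1 and ccna2 another probe was higher there. At least 2-fold lower were 6 of the 12, where 3.49% of all genes were. The median of the 12 was -1.01 and their summed level 18.2 and 17.3. Neuron markers had a median of 0.32 over 9 genes and a summed level of 13.6 and 14.0. The part of either marker list in the nr2e1 difference was not tested. The photoreceptor gene nr2e3 was dim, at 6.73 and 7.03 (0.31). Photoreceptor markers had 11 of 13 genes above background, 2 of them at least 2-fold higher on the Tg-labelled array, a median of 0.24 and a summed level of 11.5 and 12.1, and the defining nrl was not above background. The TR2 and TR4 genes, nr2c1 (-0.08) and nr2c2 (-0.09), which in mammals repress embryonic globin genes, lay near 0, and nr2c2 passed the limit by 0.02 on the WT-labelled array and missed it on the Tg-labelled array. Erythrocyte markers had a median of -0.48 over 8 genes, 1 of them at least 2-fold lower on the Tg-labelled array, and a summed level of 20.4 on both arrays.

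The Nr4a receptors are immediate early genes, made within minutes of a stimulus and active without ligand. Their 4 genes did not move alike. The gene nr4a2a read 6.43, not above background, on the WT-labelled array and 7.31 on the Tg-labelled array, at least 1.52-fold higher, and its copy nr4a2b 6.43 and 6.77, at least 1.05-fold. The gene nr4a1 was at 0.01 (8.76 and 8.77) and nr4a3 at -0.42 (8.32 and 7.90). Other immediate early genes also lay on both sides, with 12 of 15 above background and a median of 0.21. At least 2-fold, 1 was higher and 1 was lower on the Tg-labelled array, beside 4.69% and 3.49% of all genes. The higher gene was fosab, an AP-1 subunit (6.75 and 8.08, 2.51-fold), followed by junba (1.00) and klf2a (0.76), and the lower was egr2b, a zinc finger factor also used in hindbrain segments (8.70 and 6.73, 3.93-fold). Also lower were dusp1 (-0.64), egr2a (-0.57) and egr1, readable on the WT-labelled array only (7.25 and 5.77, at least 1.48-fold). Of the 11 genes above background on both arrays, 8 lay above 0 and 3 below.

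The Nr5a group, factors of steroid-producing tissue, liver and gonad, was above background on both arrays for all 4 genes, and the brightest probes of its nr5a1 copies showed the smallest differences among the readable receptors. The steroidogenic factor genes nr5a1a and nr5a1b read 11.34 and 11.35 (0.00), and 14.15 and 14.14 (-0.01), on the arrays with the labels WT and Tg. Their dimmer probes did not repeat this, and which of the probes read these genes was not tested. An nr5a1a probe 504 bases away from the bright one (chromosome 8, 54312931 to 54312990) read 6.37, not above background, and 8.45, at least 3.37-fold higher on the Tg-labelled array, and an nr5a1b probe 132 bases away from its bright one read 6.99 and 7.48 (0.49). A further pair of nr5a1a probes was not above background, at 0.25 and 0.00. The gene nr5a2, which in mammals controls bile acid synthesis, was at -0.20 (7.05 and 6.85). The fish gene nr5a5 was at 0.70 (6.98 and 7.68, 1.62-fold), and its dim probes, not above background, lay at -0.52, -0.14 and 0.02. Of their relatives without a DNA-binding domain, the repressors nr0b1 (Dax1) and nr0b2b (SHP), neither was above background. The germ cell nuclear factor gene nr6a1a was at 0.21 (9.92 and 10.13), and nr6a1b was not above background.

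Steroid synthesis genes, several of which are Nr5a targets in mammals, were read for 6 of 12. At least 2-fold, 1 was higher and 2 were lower on the Tg-labelled array, beside 4.69% and 3.49% of all genes. The side-chain cleavage gene cyp11a1.1, which begins steroid synthesis, read 10.58 and 7.11 (11.1-fold lower), and its other readable probe lay at -0.84. The androgen and cortisol synthesis gene cyp17a1 read 10.21 and 9.18 (2.04-fold lower, -0.85 at its other probe). The electron donors fdx1b (7.25 and 8.77, 2.87-fold) and fdx1 (0.48) were higher. Of 7 interrenal and gonad markers on the array, cyp17a1 was above background on both arrays and star and cyp11c1 on the Tg-labelled array only (6.05 and 6.99, and 6.46 and 7.04), while mc2r, cyp11a1.2, amh and gsdf were not above background. Their summed level was 10.6 and 10.05, and their part in the Nr5a values was not tested.

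Coregulators, the corepressors and coactivators that carry out what the receptors order, were mostly a little lower on the Tg-labelled array. Of 19 on the array 16 were above background, and 1 of these was at least 2-fold lower and none higher, where 3.49% of all genes were lower. Of the 14 above background on both arrays 13 lay below 0, where 52.7% of all genes did, with a median of -0.39 beside -0.03, the exception being the corepressor enzyme hdac3 (0.02). The largest differences were those of ncoa4 (12.08 and 11.02, 2.08-fold lower), a coactivator that also delivers ferritin for breakdown, tbl1x (10.76 and 9.77, just short of 2-fold) and tbl1xr1a (11.38 and 10.61, 1.71-fold), subunits of the corepressor complex, and nrip1b (9.16 and 8.51, 1.57-fold), a corepressor of energy genes. Probes of ncoa4 ran from -1.06 to -0.24 and those of tbl1xr1a from -0.77 to -0.18. The proliferation markers given beside nr2e1 were mostly lower too by their brightest probes, and their part in the coregulator values was not tested. Over the 137 readable genes of the pathway lists, 14 (10.2%) were at least 2-fold higher and 9 (6.57%) were lower, beside 4.69% and 3.49% of all genes, with a median of 0.09 beside -0.03. All these lists were chosen with earlier results of these data known, so the shares only describe them.

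**Figure D3:**
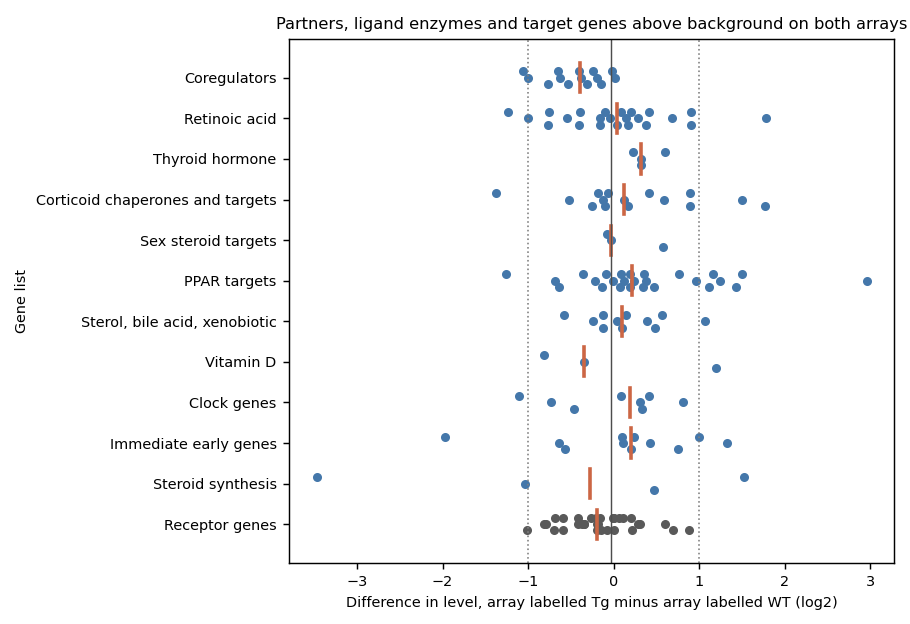
Differences in level (Tg-labelled array minus WT-labelled array, log2) of genes above background on both arrays, one point per gene, by list, with the 32 receptor genes in grey at the bottom. Orange bars mark list medians, the solid line the median of all genes (-0.03) and dotted lines 2-fold. Coregulators lie almost wholly left of 0 (median -0.39) and PPAR targets mostly right of it (median 0.22).

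Copies of a receptor were often not read alike. Of 17 pairs of a and b copies, both were above background on at least 1 array in 6, a single copy in 7 and none in 4. Among pairs readable on both arrays in both copies the widest gap was that of nr2f6 (-0.81 for nr2f6b and 0.06 for nr2f6a), and in the ppard pair pparda was at least 2.27-fold lower and ppardb at -0.14. The nr2f1 copies lay on opposite sides of 0, as did the nr2f6 copies, while the rara, nr4a2 and ppard copies each shared a sign. By their brightest probes the nr5a1 copies were both within 0.01 of 0, but a dimmer readable probe of each was higher on the Tg-labelled array. Since each pair gives 1 reading per array, these gaps have no error of their own.

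Probes of 1 gene read the same RNA and so check the reading, not the comparison of embryos. Of 14 receptor genes that 2 or more probes could read on both arrays, 9 had all such probes on the same side of 0, beside 72.5% of 5940 genes on the array. The pooled SD of the difference between probes of a gene was 0.22 for receptors and 0.29 over all genes. The receptors nr3c1, nr2e1, rorab and nr1h5 thus passed 1.5-fold with other probes in the same direction, nr2f6b had a second, dim probe on the same side, rxrba had other probes near 0, and rarga, pparda, nr4a2a, nr2f5, nr5a5, nr1d2b and esrrga each had a single readable probe. For nr3c1 this holds by the probes that carry its symbol, and brighter probes under another name fell short of 1.5-fold.

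**Figure D4:**
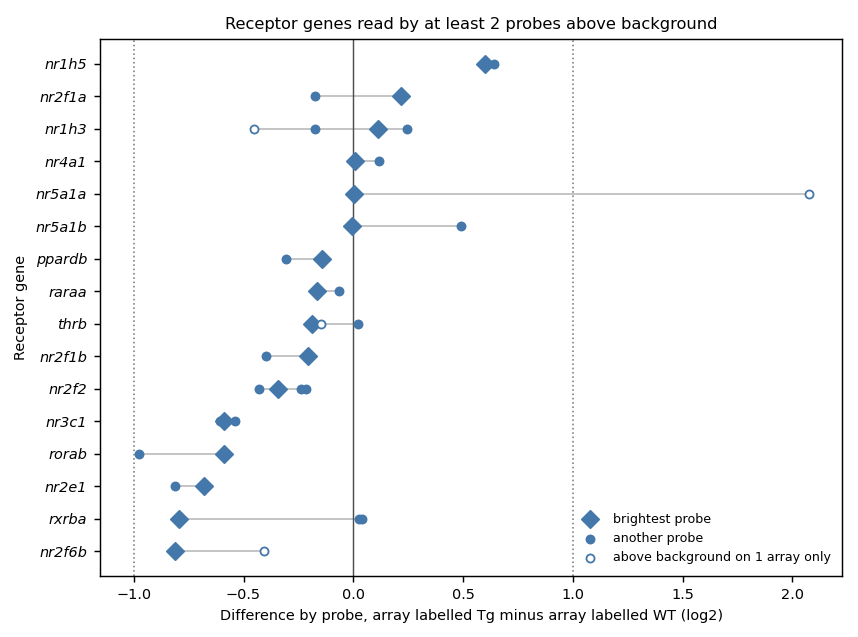
Difference by probe (Tg-labelled array minus WT-labelled array, log2) for receptor genes that 2 or more probes could read on 1 array or on both. Diamonds mark the brightest probe, filled circles other probes above background on both arrays and open circles probes above background on 1 array only, with dotted lines at 2-fold. The probes of nr3c1 and nr1h5 lie close together, those of rxrba and nr5a1a far apart.

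Several receptor genes stand side by side in the genome, by the gene order of the GRCz12tu assembly, in which all 62 were placed. Of the adjacent pairs, nr1d2b and thrb on chromosome 19 were at 0.88 and -0.19, nr5a1a and nr6a1a on chromosome 8 at 0.00 and 0.21, and nr5a1b on chromosome 21 (-0.01) lies next to nr6a1b, which was not above background. The gene rarga on chromosome 23 (-0.70) overlaps the span of nr1d4a, and rargb on chromosome 11 that of nr1d4b, and of these only rarga was above background.

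The 5 genes caught by the letters alone were all above background on both arrays. The epithelial splicing regulator esrp1 read 11.41 and 10.27 (-1.14, 2.21-fold lower on the Tg-labelled array), with -0.69 at a probe above background on the WT-labelled array only, and esrp2 was at -0.43 and -0.23 by its probes. The membrane-associated progesterone-binding proteins pgrmc1 and pgrmc2, which are heme-binding proteins, were at 0.12 (0.18 to 0.73 at other probes) and -0.37. The Mediator subunit gene med30, named thrap6 in the files, was at 0.26. Epidermis markers, beside esrp1, had a median of -0.18 over 10 genes, with 1 at least 2-fold higher, 2 lower and a summed level of 20.2 and 19.9, and their part in its difference was not tested.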

How the data were processed

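Cy3-labelled cRNA from whole-embryo RNA of both groups was prepared and hybridized to 1-colour Agilent arrays, and images were read with Feature Extraction. The values deposited by the authors are log2 signals, already normalized by a method the labels and the paper do not state, with 1 per probe and array for 43553 probes and no flags. A series-wide table repeats them at each of the 43553 probes. Probes were named through RefSeq accessions (26989 probes), current symbols (2479) or synonyms (1598) of the GRCz12tu gene table, or kept the files' name (4374), and 8113 stayed unnamed. Contigs named in the probe locations carry the name Zv8, so locations are given on that assembly.

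The 75th percentile of an array was subtracted from its signals, the brightest probe stood for a gene, and genes above the 95th percentile of 182 smell and taste receptor probes on at least 1 array were counted at 2-fold. With 1 array per group no p-value was computed, and the number of arrays limits the precision. Summed levels are the log2 of summed linear signals of a list's brightest probes. Every readable receptor is named, with both levels where it passed 1.5-fold, and up to 4 genes of each list with the largest differences among those above background on both arrays, plus those above it on 1 array that pass 2-fold by a bound. Other genes named in the text were chosen after their values were seen. The members, lists and rules were chosen with earlier results of these data known. The entry tpo was left out of the thyroid list, since the reference gives that name as a synonym of another gene. Alternatives were other scalings, filters, probes, names and thresholds, and counting any probe and pooling probes by current symbols were added after seeing the data. Steps were tested on simulated data. Computations ran in Python 3.11.15 with pandas 2.3.3, numpy 2.4.6 and scipy 1.17.1, and plots were drawn with matplotlib 3.10.9.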

Additional observations from a re-analysis of the deposited data

How the results depend on the processing

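Quantile normalization, median centring, values as deposited and the table of the series left the counts of receptor genes past 2-fold, 1 higher and 2 lower, within 1.5 times their value. Counting only genes above background on both arrays gave 0 higher and 1 lower, as did a background limit at the 99th percentile, since esrrga and pparda are dim. At 1.5-fold 5 were higher and 8 lower, and at 4-fold 0 and 0. Counting probes gave 2 higher, and counting any probe past the fold, an alternative chosen after seeing the data, also 2. The median receptor difference of -0.19 was -0.056 with no filter on dim probes and -0.27 with the stricter limit. Receptors whose probes share a sign numbered 9 of 14, 17 of 35 with no filter, and 5 with the stricter limit, where fewer genes could be counted. Pathway genes lower by 2-fold, 9, numbered 5 with the stricter limit. Of 715 recomputed differences of 82 named genes, 14 moved by more than the 0.29 between probes and 0 that had passed 2-fold changed sign. Most of the 715 could hardly move, since the other scalings and filters keep the same probe for a gene. Only the mean over probes and the probe nearest the median change the reading, and only for genes with more than 1 readable probe. With the mean over probes rxrba was at -0.24, nr5a1a at 1.04 and cyp11a1.1 at -2.15. The nr5a1a mean includes a probe readable on the Tg-labelled array only, and the receptor genes counted past 2-fold stayed at 1 higher and 2 lower. With this mean, pathway genes past 2-fold numbered 13 higher and 6 lower, and rbp2a (0.99), abca1a (0.62), ncoa4 (-0.60), bmal2 (-0.81), hoxb1a (-0.87), aldh1a3 (-0.85) and cyp17a1 (-0.94) no longer passed it. With the probe nearest the gene's median rxrba was at 0.03, and abca1a (0.66) and ncoa4 (-0.50) fell short of 2-fold. The causes were not tested. No paired analysis was possible because each group has 1 array. Signals near background limit what can be said of the 25 receptor genes not above it: their differences were not detectable here.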

Other observations

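Some probes describe nuclear receptors under names that the letters of the rule do not catch, and their values stand outside the counts above. An unnamed probe described as estrogen-related receptor beta read 11.55 on the WT-labelled array and 12.92 on the Tg-labelled array (1.36, 2.57-fold higher on the Tg-labelled array), in the same direction as esrrga. A second unnamed probe of an estrogen-related receptor read 6.68 and 6.83. The hepatocyte nuclear factors hnf4b and hnf4a, regulators of liver and intestine genes, were at 0.55 and 0.21, with 0.46 and 0.31 at other probes that were above background, and hnf4g was not above background. The xenobiotic receptor nr1i2 was not above background either. The retinoid X receptor rxrgb, named otherwise in the files, was at -0.28 (9.26 and 8.99). Probes that the reference places in nr3c1 but the files name otherwise read 10.85 and 10.38 (-0.47) and 10.42 and 10.17 (-0.25). They lay on the same side as the nr3c1 probes of the report and were brighter, but neither differed by 1.5-fold. A probe that the reference places in pparg but the files name otherwise read 18.12 and 18.06 (-0.06), while the probe named pparg was not above background, and whether the former reads pparg is not settled by the files.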
